A study of Mus musculus with 24 samples.

Results

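The genes described are those of the major histocompatibility complex (MHC) and of antigen presentation. They were taken as every gene name on the array that begins with H2-, together with Cd74, B2m, Tap1, Tap2, Tapbp, Psmb8, Psmb9, Psmb10 and Ciita. This gave 49 of 36413 gene names. Their transcripts were measured in mouse adrenal glands with one-colour Agilent arrays, of which there were 24, or 3 for every one of the 8 groups. All samples are labelled C57BL/6, while the series' design text speaks of 2 strains, WT and null. Whether the null line differs from the WT line in MHC sequence is not given in the sources used here, and for null against WT a difference between lines and an effect of the genotype cannot be told apart. The animals were either wild type (WT) or null for Kcnk3, which encodes a two-pore-domain potassium channel. The groups were male WT sham, male WT castrated, male Kcnk3 null sham, male Kcnk3 null castrated, female WT sham, female WT given testosterone, female Kcnk3 null sham and female Kcnk3 null given testosterone. The null is labelled as a genotype of the whole animal, and neither the ages nor the number of animals behind each RNA is given in the sources used here, so p-values measure the spread between these samples.

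MHC class I molecules are carried by most nucleated cells and hold peptides made in the cytosol. The immunoproteasome subunits Psmb8, Psmb9 and Psmb10 shape those peptides, the transporter Tap1/Tap2 brings them into the endoplasmic reticulum, tapasin (Tapbp) couples the transporter to the class I heavy chain, and B2m is the light chain. MHC class II molecules belong mainly to professional antigen-presenting cells such as macrophages, dendritic cells and B cells, where the invariant chain Cd74 escorts them, H2-DM loads them and Ciita switches on their genes. In a whole gland the transcript of such a gene may come from resident immune cells, and fewer cells of a type cannot be told apart from less RNA per cell.

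Values are log2 signals minus the array's 75th percentile, so that 0 is the brightness of that percentile and 1 unit is a doubling. Levels of different probes are not compared. Of the 49 members, 38 had a signal that the scanner software marked as well above background on 3 arrays or more and were tested, and 32 had it on all 24. The tested members comprise 2 classical class I heavy chains, 17 other class I genes, 7 genes of class I peptide supply and loading, 10 class II genes and 2 genes that carry an H2- name for their position alone. RefSeq calls one of these last, H2-Ke2, Pfdn6. The other 11 did not pass the filter and are 9 class I genes and the class II genes H2-DMb2 and H2-Ea-ps. On chromosome 17 lie 32 of the tested members; B2m is on chromosome 2, Psmb10 on 8, Ciita on 16 and Cd74 on 18.

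Several arrays stood apart before any member was considered. Kcnk3 lay between 66.5% and 118% of the same-sex WT sham mean on WT arrays and between 5.63% and 69.0% on arrays labelled null. On 9 arrays at least 10% of the opposite sex's signal of sex-linked transcripts was present. They were labelled female WT sham 2 and 3, female WT testosterone 1, 2 and 3, male null sham 1 and 2, and male null castrated 1 and 2. In each null against WT pair such arrays thus lay on 1 side only. In these pairs and in their mean, opposite-sex signal and genotype cannot be told apart. Liver transcripts were abundant on male WT sham 3 (albumin, 7.38) and female null testosterone 1 (albumin, 8.29), against at most 1.25 on the other 22 arrays. Slide 4 held only female WT sham 3 and female WT testosterone 3, whose RNA integrity number was 3. Replicate numbers 1 and 2 shared slides 1 and 2, and the third replicates lay on slides 3 and 4. The 75th percentile ranged from 426.5 to 1099.1 intensity units.

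No member passed the test in any of the 14 comparisons of genotype, treatment or sex (limma, Benjamini-Hochberg adjusted p under 0.05 over 26389 features). The features called were 0.0303% of all for null against WT in sham males, 0.773% in castrated males, 0.663% in sham females and 0.0417% in females given testosterone. For the mean of these 4 pairs they were 2.85%. Castration gave 0.705% in WT and 1.28% in null males, and testosterone gave 0.14% in WT and 0.273% in null females. Female against male gave 2.61% in WT and 1.02% in null sham animals, and the interactions of genotype with castration, testosterone and sex gave 0.0947%, 0.114% and 0.121%. At shares such as these a group of 38 genes would hold few calls or none. With every probe of a member tested apart, again none of the 45 probes was called.

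Groups of 3 whose arrays did not overlap were counted as well, without a test, beside the share of all features that separated likewise. Null against WT, 1 member was higher (7.42% of features) and 1 lower (7.3%) in sham males, and 1 higher (9.01%) and 1 lower (8.01%) in castrated males. In sham females 3 were higher (6.76%) and 3 lower (6.92%), and in females given testosterone 1 was higher (3.49%) and 3 lower (5.78%). After castration 0 were higher (8.73%) and 6 lower (8.32%) in WT males, and 1 higher (11.6%) and 2 lower (10.8%) in null males. After testosterone 3 were higher (3.74%) and 0 lower (4.41%) in WT females, and 5 higher (2.85%) and 0 lower (6.14%) in null females. In females against males 5 were higher (9.06%) and 5 lower (8.83%) in WT sham animals, and 3 higher (10.8%) and 6 lower (10.3%) in null sham animals.

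**Figure D1:**
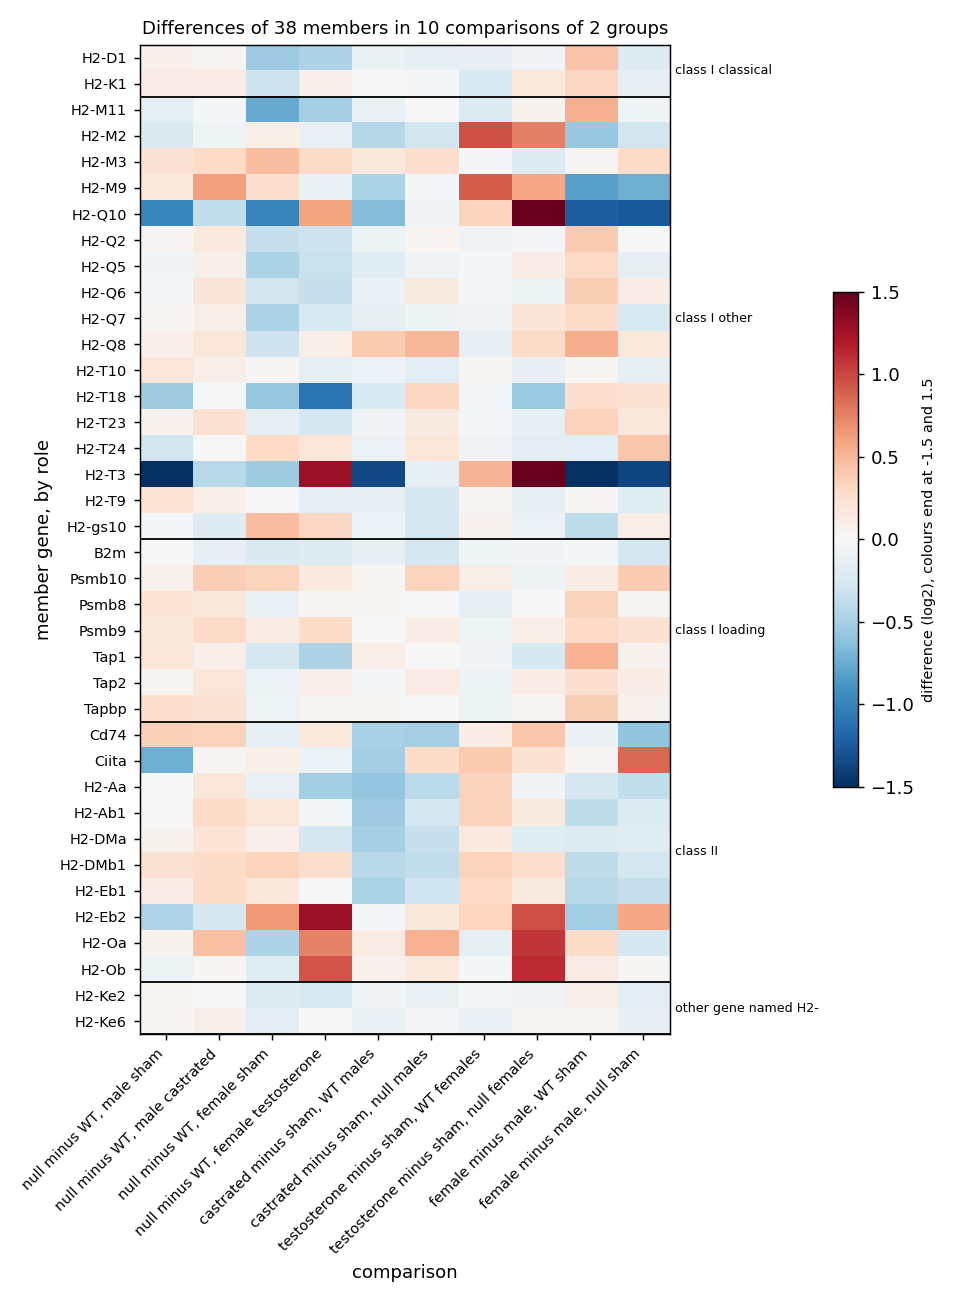
Differences (log2) of the 38 tested members, in rows by role, in the 10 comparisons of 2 groups, in columns; red is higher and blue lower in the first-named group, and colours end at -1.5 and 1.5. For castration in WT males 8 of the 10 class II genes are below 0, at -0.58 for H2-Aa and -0.55 for H2-Ab1, while dark single cells belong to dim probes such as H2-T3 or to H2-Q10; no cell passed the adjusted test.

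In WT males most class II genes read lower after castration, although none passed the test. H2-Aa and H2-Ab1 encode the alpha and beta chains of the class II molecule I-A, H2-Eb1 the beta chain of I-E, and H2-DMa and H2-DMb1 the 2 chains of the peptide editor H2-DM. Their median difference, castrated minus sham, was -0.48 over the 10 tested class II genes, with 8 below 0, against -0.04 over all features. An unadjusted p under 0.05 was reached by 4 of them, all lower after castration, and by 6.7% of all features in either direction; none passed adjustment.

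Because these genes tended to move together, the start of their promoters is shown. RefSeq promoter entries (GRCm38.p6, 250 bases before to 50 after the gene start) were present for 34 of the 49 members. The letters ATTGG, searched on both strands, are the core of the Y box, an element that class II promoters are known to share. They occurred in 8 of 8 class II genes with an entry, in 16 of 19 class I genes and in 37.4% of all promoters. Capitals mark ATTGG in chr17:34287807-34287931 (minus strand), chr17:34305748-34305872 and chr17:34153070-34153194 (both plus strand), where it begins 48, 59 and 61 bases before the gene start.
H2-Aa: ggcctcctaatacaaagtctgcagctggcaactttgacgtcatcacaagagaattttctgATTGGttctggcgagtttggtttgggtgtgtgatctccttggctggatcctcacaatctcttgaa
H2-Eb1: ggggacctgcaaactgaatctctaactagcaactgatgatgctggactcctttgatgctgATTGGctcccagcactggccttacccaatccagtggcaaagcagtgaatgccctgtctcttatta
H2-DMb1: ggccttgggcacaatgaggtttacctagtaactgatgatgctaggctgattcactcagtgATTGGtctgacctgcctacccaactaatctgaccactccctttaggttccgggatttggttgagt
A match of these letters is a description of the window and not evidence of a factor at work there.

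H2-Ab1 read 5.55, 5.32 and 5.66 in sham WT males and 4.72, 4.96 and 5.21 after castration. The groups did not overlap, and the difference was -0.55 (SE 0.15, 95% interval -0.87 to -0.23, n = 3 and 3; limma adjusted p = 0.152). H2-Aa read 2.02, 1.88 and 1.92 in sham and 1.12, 1.53 and 1.43 in castrated WT males. All castrated arrays lay below all sham arrays for H2-Aa too, with a difference of -0.58 (SE 0.20; limma adjusted p = 0.377). H2-Eb1 went from 5.34, 5.25 and 5.56 to 4.64, 4.98 and 5.10, a difference of -0.48 (SE 0.18; limma adjusted p = 0.447). H2-DMa was -0.49, -0.37 and -0.42 in sham and -1.20, -0.74 and -0.82 in castrated WT males. The same separation was seen for H2-DMb1, at 1.66, 1.72 and 1.70 against 1.13, 1.36 and 1.35, and for Cd74, at 4.62, 4.57 and 4.48 against 3.75, 4.21 and 4.24. These are the 6 members, all of the class II pathway, whose groups separated in this comparison.

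For both I-A chains the difference had the same direction on each slide. For H2-Ab1 it was -0.84, -0.36 and -0.45 on slides 1, 2 and 3, and for H2-Aa -0.90, -0.35 and -0.49. With slide as a block the adjusted p of limma was 0.0898 for H2-Ab1 and 0.126 for H2-Aa. None of the 9 arrays with opposite-sex signal is a WT male array. Arrays were also weighted by how closely each followed its group means in these data, not by a recorded quality. With these weights 4 members passed the test in this comparison, namely H2-Aa (limma adjusted p = 0.015), H2-Ab1 (0.00971), H2-DMa (0.0347) and H2-Eb1 (0.0358). The share of all features called with these weights is not given here, so the 4 cannot be set beside it. Over all 37 other settings the adjusted p of H2-Ab1 ran from 0.00971 to 0.733, and the difference from -0.67 to -0.43.

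In null males the means of the same genes were again lower after castration, but with overlap between the groups. H2-Ab1 read 5.68, 5.47 and 5.39 in sham and 5.49, 5.15 and 5.12 in castrated null males, and the groups overlapped (difference -0.26, 95% interval -0.58 to 0.06). H2-Aa read 2.04, 2.01 and 1.76 against 1.83, 1.43 and 1.35, a difference of -0.40 with a 95% interval of -0.82 to 0.02. Cd74 read 5.13, 5.12 and 4.50 against 4.77, 4.43 and 4.05, a difference of -0.50. The median over the 10 class II genes was -0.28 against 0.00 over all features. The interaction of genotype and castration, which tests whether the 2 genotypes differ in the effect, was 0.29 for H2-Ab1 (95% interval -0.17 to 0.75; limma adjusted p = 1). Without the 4 null male arrays that carried female transcripts, 1 array was left in each null male group and the difference for H2-Ab1 was -0.27.

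**Figure D2:**
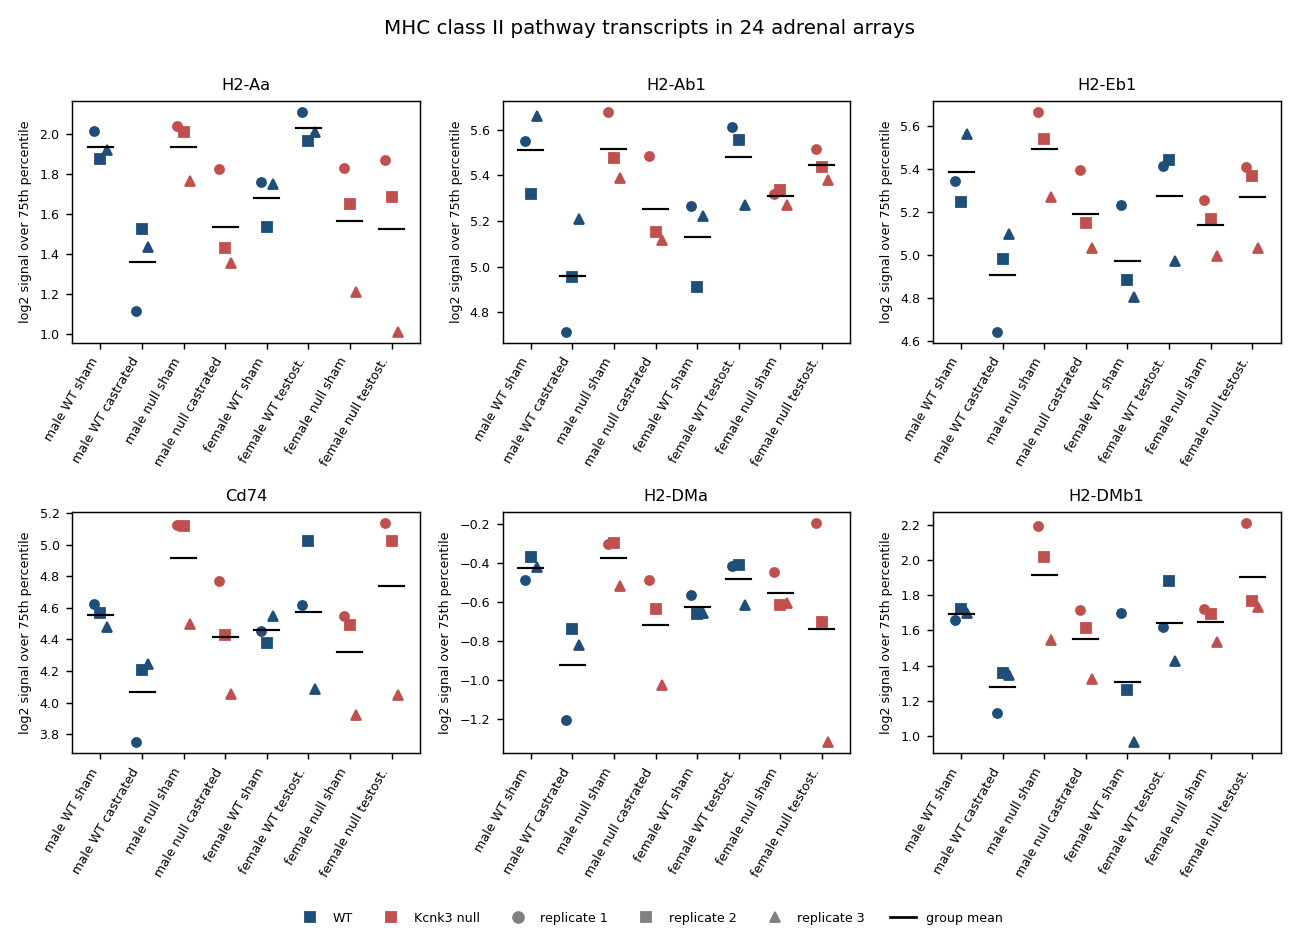
Log2 signal over the array's 75th percentile (vertical axes, which do not start at 0) of 6 class II pathway genes on each of the 24 arrays, by group; symbols are single arrays and black lines the means of 3. Castrated WT males lie below sham WT males without overlap in all 6 panels, and for H2-Ab1 and H2-Aa sham WT females lie below WT females given testosterone.

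Testosterone in females was set beside castration in males as the opposite change in androgen. In WT females H2-Ab1 read 5.26, 4.91 and 5.22 in sham and 5.61, 5.55 and 5.27 after testosterone. The groups stood apart by a narrow margin, with a difference of 0.35 (SE 0.15; limma adjusted p = 0.688). H2-Aa read 1.76, 1.54 and 1.75 against 2.11, 1.96 and 2.01, also without overlap, a difference of 0.35 (95% interval -0.08 to 0.77). H2-Eb1 read 5.23, 4.88 and 4.80 against 5.41, 5.44 and 4.97, and overlapped. The median over class II genes was 0.31, with 8 of 10 above 0, against -0.02 over all features. All 3 arrays of WT females given testosterone and 2 of the 3 sham arrays are among those with male transcripts, so that no within-label comparison remained without them.

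In null females, whose arrays carried no such signal, H2-Ab1 read 5.32, 5.33 and 5.27 in sham and 5.52, 5.44 and 5.38 after testosterone. The groups did not overlap, and the difference was 0.14 (95% interval -0.19 to 0.46; limma adjusted p = 1). H2-Aa read 1.83, 1.65 and 1.21 against 1.87, 1.69 and 1.01, a difference of -0.04. The interaction of genotype and testosterone was -0.21 for H2-Ab1 (95% interval -0.67 to 0.25). At an unadjusted p under 0.05 there were 2 members in each testosterone comparison, against 6.56% of all features in WT and 6.61% in null females. In WT these were H2-Ab1 and H2-M2, and in null females H2-Ob and H2-Q10. The class I gene H2-M2 read -2.15, -2.02 and -1.43 in sham WT females and -0.51, -1.22 and -0.99 after testosterone, a difference of 0.96. Null females read -1.37, -1.76 and -2.20 in sham and -0.87, -0.91 and -1.28 after testosterone for H2-M2, also without overlap. Its mean was -1.29 in sham and -1.72 in castrated WT males, and -1.51 and -1.78 in null males, both with overlap.

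Between the sexes, sham WT females read lower than sham WT males for the I-A and I-E chains. The difference was -0.38 for H2-Ab1 (SE 0.15; limma adjusted p = 0.258) and -0.41 for H2-Eb1 (SE 0.18; limma adjusted p = 0.292), in both cases without overlap. Female WT sham 2 and 3 carried male transcripts, and the RNA integrity number of female WT sham 3 was 3. With female WT sham 1 as the only female array left, the difference was -0.25 for H2-Ab1 and -0.15 for H2-Eb1. The class II median was -0.23 in WT and -0.22 in null animals, with 7 of 10 genes below 0 in each. Sham males are shared by the castration and the sex comparison of a genotype, so their values are not separate observations. No macrophage marker passed the test in either comparison. The summed linear signal of 14 of them, 1 never above background, was 67.23 to 75.08 in sham WT males, 64.69 to 66.38 in castrated WT males and 73.38 to 127.2 in sham WT females. The sums of castrated males lay below those of sham males, and those of females overlapped them. The median difference over the 13 tested markers was -0.07 for castration in WT males and 0.30 for sex in WT sham animals, and single markers did not go 1 way: after castration Itgam differed by -0.18 and Cd68 by 0.99. The sum of 7 leukocyte markers was 18.86 to 21.63, 19.63 to 21.47 and 18.97 to 41.45 in the 3 groups, which overlapped. Dendritic cell markers, 7 in number, went the other way from the macrophage sum after castration. They summed to 1.488 to 1.517 in sham and 1.59 to 1.925 in castrated WT males, and to 1.402 to 1.829 in sham WT females. For 7 B cell markers the sums were 0.7016 to 0.9365 in sham and 0.5668 to 0.8776 in castrated WT males, which overlapped. The part of cell number in the class II values was not tested.

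The I-A chains and Cd74 were correlated across arrays, and H2-Ob was not correlated with H2-Aa. Over the 24 arrays, r was 0.68 between H2-Aa and H2-Ab1 (rho 0.73; permutation p = 0.00034 and 0.00011; adjusted over 5 relations 0.00085 and 0.00027) and 0.70 between H2-Ab1 and Cd74 (rho 0.74; permutation p = 0.00018 and 0.0001; adjusted 0.00085 and 0.00027). For all 5 relations the 24 arrays were shuffled freely, so differences between groups and slides enter the permutation p-values. Without the 2 arrays farthest from the median, r was 0.73 and 0.65 for these 2 pairs. Within slides 1, 2 and 3, of 8, 8 and 6 arrays, it was 0.97, 0.79 and 0.59 for the first pair and 0.89, 0.88 and 0.63 for the second. The class I chain H2-K1 followed its light chain B2m at r = 0.58 (rho 0.60; permutation p = 0.0037 and 0.0022; adjusted 0.0061 and 0.0037), and r was 0.39 without the 2 farthest arrays and 0.86, 0.42 and 0.42 within slides. H2-Ab1 and H2-K1 gave r = 0.30 (rho 0.41; permutation p = 0.15 and 0.049; adjusted 0.19 and 0.061). H2-Aa and H2-Ob gave r = 0.09 (rho 0.00; permutation p = 0.68 and 1; adjusted 0.68 and 1). After the group means were subtracted the order was another: r was 0.55 for H2-Aa and H2-Ab1, 0.59 for H2-Ab1 and Cd74, 0.66 for H2-Ab1 and H2-K1, 0.73 for H2-K1 and B2m and 0.42 for H2-Aa and H2-Ob. Class II pairs were thus not set apart from the pair of a class II and a class I chain within groups.

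Ciita itself was dim, above background on 19 of 24 arrays. It read -4.55, -4.88 and -4.07 in sham and -5.81, -5.20 and -4.0 in castrated WT males, -6.09, -5.27 and -4.35 in sham and -5.42, -5.09 and -4.37 in castrated null males. In females it read -4.46, -6.08 and -2.83 in WT sham, -5.01, -4.43 and -2.75 in WT given testosterone, -4.57, -4.84 and -3.71 in null sham and -4.86, -4.35 and -3.23 in null given testosterone. The third replicate, on slide 3 or 4, was the brightest of its group in all 8 groups, so that group differences in Ciita were small beside the spread between slides.

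H2-Ea-ps, the gene for the alpha chain of I-E, was not well above background on any array of either genotype. In C57BL/6 mice this gene is known to be defective, so that H2-Eb1 is transcribed there without a partner. H2-Ab1 is measured by 2 overlapping probes, at chr17:34406296-34406355 and chr17:34406305-34406363 (mm9, plus strand), which share 51 bases and differ at 1 of them. The pair is shown because it reads 1 stretch of the gene with 2 different letters at that base. Capitals mark the differing base, T16C from the first probe to the second, counted from the first base shown.
H2-Ab1, first probe: acaaataaacgagacTcagactctg
H2-Ab1, second probe: acaaataaacgagacCcagactctg
Null minus WT, the first and second probes gave 0.00 and -0.02 in sham males, 0.29 and 0.32 in castrated males, 0.18 and 0.10 in sham females and -0.03 and -0.09 in females given testosterone. The 2 probes thus lay within 0.08 of each other in each pair, and both showed the castration difference in WT males, at -0.55 and -0.60.

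The remaining class II genes stood high on 1 array. H2-Oa and H2-Ob form H2-DO, a modulator of H2-DM known from B cells. On female null testosterone 1, H2-Oa read -0.14 against -2.58 or below elsewhere, and H2-Ob -0.79 against -2.99 or below. H2-Eb2 read -2.18 there and -3.51 or below elsewhere. The B cell receptor component Cd79b was at 2.68 on that array and at most -0.96 on the others, and the summed signal of 7 B cell markers was 11.02 against 0.376 to 1.04. Testosterone minus sham in null females was 1.12 for H2-Ob with all arrays (limma adjusted p = 0.674) and 0.22 without the arrays that carried liver transcripts, of which this is one. For H2-Eb2, null minus WT in females given testosterone was 1.29 with all arrays and 0.48 without those arrays; left out instead, female null testosterone 2 moved it to 2.25 (limma adjusted p = 0.0473).

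**Figure D3:**
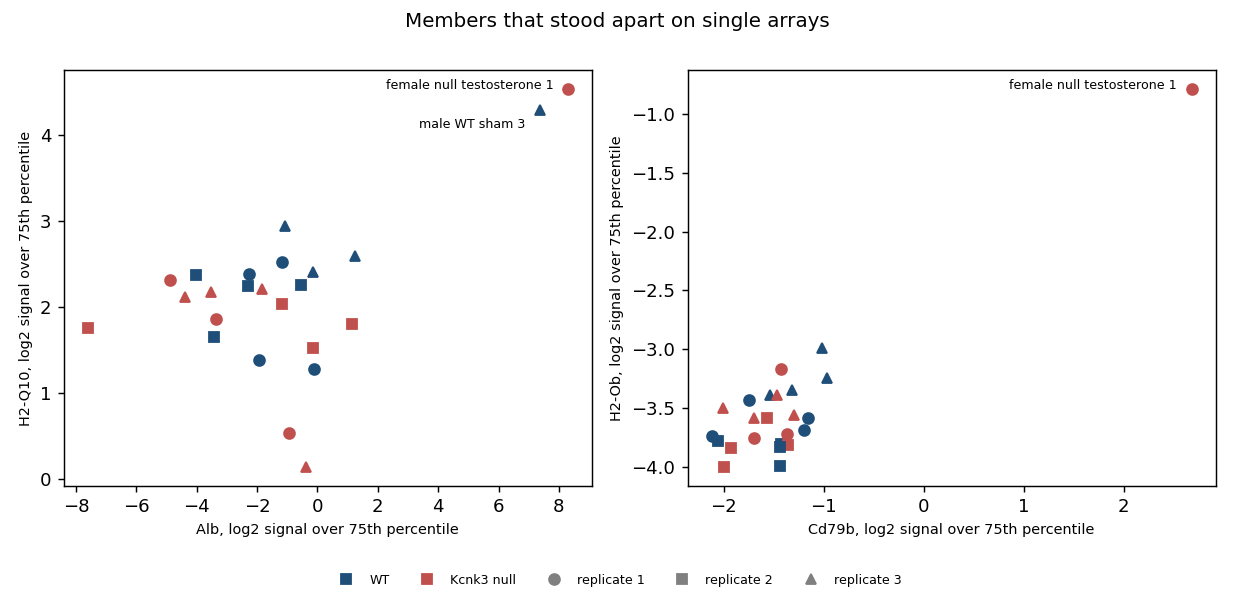
Left, H2-Q10 against albumin (Alb), and right, H2-Ob against the B cell gene Cd79b, each as log2 signal over the array's 75th percentile on 24 arrays. Female null testosterone 1 stands apart in both panels and male WT sham 3 in the left one, where H2-Q10 reads 4.53 and 4.28.

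H2-Q10, a secreted class I molecule made in liver, was highest on the 2 arrays with liver transcripts by the brighter of its 2 probes. It read 4.28 on male WT sham 3 and 4.53 on female null testosterone 1, and between 0.15 and 2.94 on the other arrays. In null females testosterone minus sham was 1.93 (SE 0.64; limma adjusted p = 0.395) with all arrays and 1.04 without those 2. Female minus male was -1.24 in WT and -1.26 in null sham animals, and -0.63 in WT without male WT sham 3. The dimmer probe read 2.12 on female null testosterone 1, but 1.48 on male WT sham 3 against 1.49 on female WT testosterone 3. By it sham WT females (0.97, 0.91 and 1.37) overlapped sham WT males (1.04, 0.81 and 1.48). Null females read 0.49, 0.79 and 0.26 in sham and 2.12, 0.44 and 0.15 after testosterone by the dimmer probe. The part of liver RNA in the remaining values was not tested.

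The classical class I chains H2-D1 and H2-K1 passed the test in no comparison. H2-D1 read 5.13, 4.88 and 5.32 in sham, 4.85, 4.96 and 5.21 in castrated WT males, 5.20, 5.28 and 5.08 in sham and 5.29, 5.04 and 4.84 in castrated null males. The female arrays read 5.62, 5.18 and 5.79 in WT sham, 5.28, 5.28 and 5.69 in WT given testosterone, 4.88, 5.13 and 4.96 in null sham and 5.23, 4.82 and 4.80 in null given testosterone. In both female pairs all null arrays lay below all WT arrays.

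Null minus WT for H2-D1 was -0.54 in sham females (SE 0.18; limma adjusted p = 0.243) and -0.47 in females given testosterone (SE 0.18; limma adjusted p = 0.43). In sham and castrated males it was 0.08 and 0.04, and the interaction of genotype and sex in sham animals was -0.62 (95% interval -1.17 to -0.07; limma adjusted p = 0.706). On slide 1 the sham female difference was -0.74 and on slide 2 it was -0.05, and with slide as a block it was -0.40. With testosterone it was -0.05 and -0.46 on these slides. Of the 6 WT female arrays 5 carried male transcripts, and with female WT sham 1 as the only WT array left the sham difference was -0.63. Both slide 4 arrays are WT females and read 5.79 and 5.69, the highest of their groups.

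H2-K1 read 6.34, 6.26 and 6.75 in sham and 6.35, 6.43 and 6.54 in castrated WT males, and 6.66, 6.68 and 6.38 in sham and 6.69, 6.58 and 6.41 in castrated null males. Among females the values were 7.13, 6.61 and 6.55 in WT sham, 6.60, 6.65 and 6.35 in WT given testosterone, 6.36, 6.65 and 6.35 in null sham and 6.68, 6.56 and 6.59 in null given testosterone. By this probe, the brighter of 2, the groups overlapped in all 10 comparisons of 2 groups. The genotype differences were 0.12, 0.12, -0.31 and 0.08 in sham males, castrated males, sham females and females given testosterone. The dimmer probe read 5.61, 5.14 and 5.22 in sham WT females and 4.95, 4.86 and 5.05 in sham WT males, without overlap. The high value of 7.13 is from female WT sham 1, which also had the highest level of the macrophage gene Emr1, 2.30 against 1.77 or below. The macrophage marker sum was 85.19 there, below 127.2, 116.1 and 108.8 on female WT sham 3, female null sham 3 and female WT testosterone 3. H2-K1 read 6.55, 6.35 and 6.35 on these. The leukocyte marker sum was highest on female WT sham 1, at 41.45. The part of cell number in the H2-K1 values was not tested.

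B2m, the light chain, read 6.36, 6.33 and 6.92 in sham and 6.48, 6.31 and 6.45 in castrated WT males, and 6.56, 6.61 and 6.47 in sham and 6.37, 6.15 and 6.36 in castrated null males. In females it read 7.05, 6.48 and 5.98 in WT sham, 6.53, 6.51 and 6.29 in WT given testosterone, 6.27, 6.41 and 6.18 in null sham and 6.73, 6.19 and 5.83 in null given testosterone. All 4 genotype differences were between -0.22 and 0.01.

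**Figure D4:**
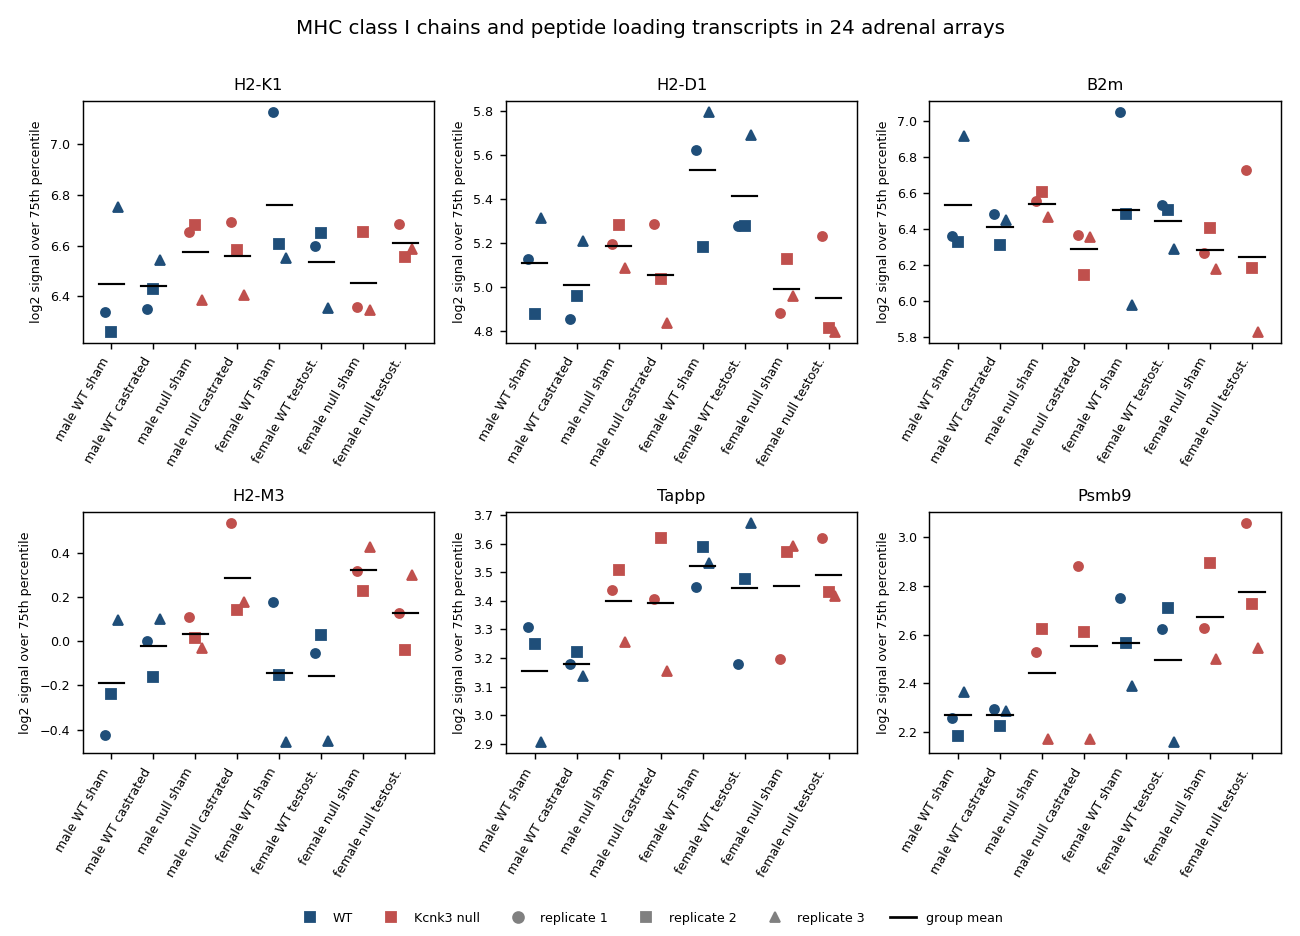
Log2 signal over the array's 75th percentile (vertical axes, which do not start at 0) of the class I chains H2-K1, H2-D1, B2m and H2-M3, of tapasin (Tapbp) and of the immunoproteasome subunit Psmb9 on each of the 24 arrays, by group; symbols are single arrays and black lines the means of 3. WT and null females separate for H2-D1, while for H2-M3 the mean of each null group lies above that of its WT partner.

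The promoters of the 2 classical chains are nearly alike, and are shown with the 9 letters GGGATTCCC, part of the NF-kappa-B element of class I promoters. Searched on both strands, these letters stood in the promoters of H2-K1, H2-D1, H2-Q6 and H2-Q7, or 4 of 19 class I genes with an entry, in 0 of 8 class II genes and in 0.353% of all promoters. Capitals mark them in chr17:34000389-34000517 (minus strand) and chr17:35262864-35262992 (plus strand) of GRCm38.p6, where 122 of 129 bases are the same at the same place.
H2-K1: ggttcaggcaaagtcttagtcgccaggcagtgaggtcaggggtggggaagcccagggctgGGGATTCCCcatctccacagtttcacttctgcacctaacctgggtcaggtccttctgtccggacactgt
H2-D1: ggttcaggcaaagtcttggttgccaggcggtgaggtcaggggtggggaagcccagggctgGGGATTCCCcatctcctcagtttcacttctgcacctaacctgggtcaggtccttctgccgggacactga
In females given testosterone, null minus WT was 0.08 and -0.16 by the 2 probes of H2-K1, which differ in sign, and -0.47 for H2-D1.

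The other class I genes include close relatives whose transcripts may bind each other's probes, so single members are uncertain. Among the probes used, those of H2-T18 and H2-T3-like share a run of 34 bases and those of H2-Q10 and H2-T3 one of 22. In sham females the median of the 19 class I heavy chain genes, null minus WT, was -0.31 with 12 below 0, against -0.02 over all features, and in females given testosterone it was -0.14. In males it was 0.04 in sham and 0.09 after castration. H2-Q2 differed by -0.35 and H2-Q5 by -0.48 in sham females, without overlap, and a second, dimmer probe of H2-Q2 by -0.63. Null minus WT in sham females gave 4 members at an unadjusted p under 0.05 against 10.4% of all features, and in females given testosterone 3 against 8.77%. In sham and castrated males it gave 0 against 3.75% and 7.53%.

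H2-M3, which presents formylated peptides of bacteria and mitochondria, was the member nearest to a call. It read -0.42, -0.24 and 0.09 in sham and 0.00, -0.16 and 0.10 in castrated WT males, and 0.11, 0.02 and -0.03 in sham and 0.53, 0.14 and 0.18 in castrated null males. Female values were 0.18, -0.15 and -0.46 in WT sham, -0.05, 0.03 and -0.45 in WT given testosterone, 0.32, 0.23 and 0.42 in null sham and 0.13, -0.04 and 0.30 in null given testosterone. The null group had the higher mean in all 4 pairs, by 0.22, 0.30, 0.47 and 0.29, although the arrays overlapped in some of them.

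Averaged over the 4 pairs, null minus WT for H2-M3 was 0.32 (SE 0.09, 95% interval 0.13 to 0.51; limma adjusted p = 0.0623). It passed the test under 9 of 36 other settings, with an adjusted p from 0.00563 to 0.136; leaving out female WT sham 1 gave 0.0287 and leaving out male WT sham 3 gave 0.04. With slide as a block the difference was 0.22 (limma adjusted p = 0.0956). It was 0.14 and 0.38 on slides 1 and 2 in sham females, and 0.53, 0.25 and -0.13 on slides 1, 2 and 3 in sham males. Other members at an unadjusted p under 0.05 in this average were H2-DMb1 (0.27), Psmb10 (0.23), Psmb9 (0.21) and H2-D1 (-0.22). That is 5 of 38, while 15.3% of all features reached it. All 3 sex-linked genes tested passed in this average, 1 higher and 2 lower in null. Opposite-sex signal and genotype cannot be told apart in it, for H2-M3 as for the other members.

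The 7 genes of peptide supply and loading passed the test in no comparison. For female against male in WT sham animals 4 of them separated higher, beside 9.06% of all features. These were Psmb8, Psmb9, Tap2 and Tapbp. The median over the 7 was 0.30 there, with 6 above 0. In null sham animals it was 0.07, and 1 separated higher (10.8%) and 1 lower (10.3%). Psmb9 read 2.26, 2.18 and 2.37 in sham and 2.30, 2.23 and 2.29 in castrated WT males, 2.53, 2.62 and 2.17 in sham and 2.88, 2.61 and 2.17 in castrated null males. In the 4 female groups it read 2.75, 2.56 and 2.39 in WT sham, 2.62, 2.71 and 2.16 in WT given testosterone, 2.63, 2.89 and 2.50 in null sham and 3.06, 2.72 and 2.55 in null given testosterone. WT males were close together and all other groups more spread.

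Psmb8 read 2.18, 2.22 and 2.34 in sham and 2.29, 2.28 and 2.27 in castrated WT males, and 2.64, 2.58 and 2.15 in sham and 2.61, 2.70 and 2.05 in castrated null males. In females it read 2.85, 2.51 and 2.43 in WT sham, 2.61, 2.59 and 2.15 in WT given testosterone, 2.53, 2.64 and 2.29 in null sham and 2.81, 2.49 and 2.19 in null given testosterone. In each null male group the 2 arrays with female transcripts, replicates 1 and 2, were the higher ones, for Psmb8 as for Psmb9. The third replicate was likewise the lowest in every female group for both genes, also in null females, whose arrays carried no male transcripts. In null males female transcripts cannot be told apart from replicate number and slide.

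Psmb10 read 4.76, 4.69 and 4.63 in sham and 4.91, 4.68 and 4.57 in castrated WT males, and 4.98, 4.82 and 4.47 in sham and 5.21, 5.19 and 4.88 in castrated null males. The female arrays read 5.38, 4.87 and 4.18 in WT sham, 5.01, 4.92 and 4.80 in WT given testosterone, 5.09, 5.21 and 5.12 in null sham and 4.96, 5.06 and 5.17 in null given testosterone. Female WT sham held both the highest and the lowest array.

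The transporter chain Tap1 read -1.42, -1.82 and -1.82 in sham and -1.80, -1.53 and -1.45 in castrated WT males, and -1.47, -1.44 and -1.59 in sham and -1.01, -1.34 and -2.12 in castrated null males. Among females the values were -1.55, -1.25 and -0.71 in WT sham, -1.24, -1.52 and -0.86 in WT given testosterone, -1.49, -1.24 and -1.56 in null sham and -1.51, -1.55 and -1.95 in null given testosterone. Its 2 highest values came from the slide 4 arrays.

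Tap2 read 4.07, 4.03 and 3.77 in sham and 3.88, 3.96 and 4.00 in castrated WT males, and 4.10, 4.06 and 3.83 in sham and 4.20, 4.29 and 3.87 in castrated null males. In females it read 4.16, 4.17 and 4.27 in WT sham, 4.14, 3.99 and 4.20 in WT given testosterone, 3.96, 4.25 and 4.12 in null sham and 3.97, 4.36 and 4.32 in null given testosterone. The groups differed by no more than 0.24 in any comparison of 2 groups.

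Tapbp read 3.31, 3.25 and 2.91 in sham and 3.18, 3.22 and 3.14 in castrated WT males, and 3.44, 3.51 and 3.26 in sham and 3.41, 3.62 and 3.16 in castrated null males. Female values were 3.45, 3.59 and 3.53 in WT sham, 3.18, 3.48 and 3.67 in WT given testosterone, 3.20, 3.57 and 3.59 in null sham and 3.62, 3.43 and 3.42 in null given testosterone. Sham WT females lay above sham WT males without overlap, by 0.37 (SE 0.16; limma adjusted p = 0.287).

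Of the 38 members, 6 reached an unadjusted p under 0.05 for female against male in WT sham animals, against 14% of all features, and 0 in null sham animals, against 10.5%. Besides H2-Ab1 and H2-Eb1, which were lower in females, they were H2-Q8 (0.54), H2-D1 (0.42), H2-Q2 (0.39) and Tapbp (0.37). The sign of the class I median was not the same in the 2 genotypes, at 0.25 in WT and -0.12 in null animals. Castration gave 4 in WT, against 6.7%, and 1 in null males, against 10.1%, the latter being H2-Q8 (0.50, higher after castration). The interactions with castration and testosterone gave 0 members, against 4.35% and 3.83%, and that with sex gave H2-D1 alone, against 6.22%.

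Some of the dimmer members moved with the slide, while others such as H2-Oa did not. H2-T3, the thymus leukemia antigen, was above background on 7 of 24 arrays and on none of the female WT sham arrays. It read -5.85, -5.32 and -1.76 in sham WT males and -7.86, -7.46 and -5.01 in sham WT females, and the 1 male array above background was male WT sham 3, which carried liver transcripts. The difference was -2.47 with all arrays and -1.19 (limma adjusted p = 0.798) without the 2 arrays with liver transcripts, when no array of either group was above background. With all arrays the adjusted p of limma was 0.438, and it was 0.0202 with slide as a block. With that block H2-M9 also passed in this comparison, at -1.48 (limma adjusted p = 0.038). H2-M9 was above background on 7 of 24 arrays, and on 1 array of each of these 2 groups. Its second probe read -5.97, -5.25 and -6.88 in sham WT males and -6.60, -6.64 and -6.24 in sham WT females, and overlapped. On slides 1 and 2 the H2-T3 difference was -2.01 and -2.14. H2-M11 was -3.12 to -2.07 on slides 1 and 2 and -1.27 to -0.10 on slides 3 and 4.

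The stretch of chromosome 17 between the first and the last H2- probe, chr17:34076578-37618101 (mm9), held 149 other tested genes beside 31 of the members. In the average of the 4 genotype pairs, 4 of these neighbours passed the test, or 2.68%, beside 2.85% of all features. The receptor tyrosine kinase Ddr1 rose by 0.63 (limma adjusted p = 0.00235). It read 1.02, 1.27 and 0.78 in sham and 0.76, 0.98 and 0.84 in castrated WT males, against 1.47, 1.35 and 1.21 in sham and 1.99, 1.88 and 1.75 in castrated null males. Its difference was 1.01 in castrated males (limma adjusted p = 0.019) and 1.07 in sham females (limma adjusted p = 0.0187). The macrophage gene Aif1 rose by 0.37 (limma adjusted p = 0.0333) and Prr3 by 0.53 (limma adjusted p = 0.0451). Cdsn, a desmosome protein of skin, fell by 1.22 (limma adjusted p = 0.00706), and it also fell by 2.76 after castration in null males (limma adjusted p = 0.00372). Whether a sequence difference between the WT and null lines in this stretch touches any probe was not tested. For these neighbours too, opposite-sex signal and genotype cannot be told apart in the genotype differences.

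Other genes of antigen presentation followed the members in giving few calls. Of 28 tested genes of a wider list, among them Nlrc5, Rfx5, Calr, Ctss and Psme1, only Cd1d1, which presents lipids to NKT cells, passed in any of the 14 comparisons. It read 3.52, 3.45 and 3.74 in sham and 5.92, 5.54 and 5.70 in castrated WT males, and rose by 2.15 (SE 0.29; limma adjusted p = 0.000838). It was 2.24 higher in sham WT females than in sham WT males (limma adjusted p = 0.000274), and in the average of the genotype pairs it fell by 0.59 (limma adjusted p = 0.0329). Both of its higher groups were measured against the same sham WT males, as were the class II differences given above.

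Of 30 interferon response genes, Ifit3 (0.57; limma adjusted p = 0.00719) and Oasl2 (0.45; limma adjusted p = 0.0418) rose in the average of the genotype pairs. The list's median was 0.23 against -0.02 over all features, and it was 0.08 for the 7 genes of class I peptide supply, which interferons are known to induce. For female against male in sham animals the list's median was 0.26 in WT and 0.45 in null animals. Opposite-sex signal and genotype cannot be told apart in the average of the genotype pairs, for this list and those below. Ifit3 averaged 1.56 and 1.58 in sham and castrated WT males and 2.05 and 2.08 in the null groups. Of the cell type lists, in that same average, Aif1 was the 1 macrophage marker of 13 tested to pass, and the dendritic cell marker Cd209a fell by 0.88 (limma adjusted p = 0.0137), 1 of 6. The medians of these 2 lists were 0.03 and 0.13. No marker passed in any comparison among 5 of B cells, 10 of T and NK cells and 7 of leukocytes. The adipocyte gene Retn, 1 of 5 tested, fell by 1.28 in the average (limma adjusted p = 0.00842), with a list median of -0.43. In WT sham females against males the adrenal cortex genes Star (0.84; limma adjusted p = 0.0212) and Nr5a1 (1.62; limma adjusted p = 0.00154) and the kidney gene Lrp2 (2.53; limma adjusted p = 0.0173) were higher. They were 2 of 8 cortex markers tested (median 0.21) and 1 of 3 kidney markers (median 0.13). In the average of the genotype pairs the endothelial markers Tek and Emcn fell by 0.37 and 0.33 (limma adjusted p = 0.0366 and 0.0463). They were 2 of 8 tested, and the list median was -0.01.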

How the data were processed

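Per the file headers, the authors deposited Feature Extraction 10.7.3.1 spot intensities of one-colour (Cy3) arrays, with a background-subtracted processed signal, mean and background signals and spot flags. The deposited value table holds log2 values, which correlated at 0.9979 or more with each array's own log2 mean signal and lay within a median of 0.0291 of its quantile-normalized form; no header states the normalization.

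Here, log2 processed signal minus each array's 75th percentile was used. Spots flagged as outliers (160 to 283 per array) were left out, spots of a probe averaged, and the brightest probe kept per gene name. Features well above background on 3 or more arrays were tested (26389) with limma 3.58.1 in R 4.3.3 (8 group means, 16 residual degrees of freedom, Benjamini-Hochberg over all features, called under 0.05). Between 57% and 64.7% of spots per array were well above background and none was saturated; 3 arrays a group limit the precision. The 2 slide 4 arrays were read with a later design file that names 6713 features otherwise, so names come from the other 22. Probe positions are mm9. Figures were drawn with matplotlib 3.10.9.

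The members and gene lists were chosen with earlier results of these data known. By the rule for named genes, every array is given for H2-K1, H2-D1, B2m, H2-Aa, H2-Ab1, H2-Eb1, Cd74, Ciita, Tap1, Tap2, Tapbp, Psmb8, Psmb9 and Psmb10, and called genes are named from the lists and, for genotype, from the chromosome 17 neighbours; H2-M3, H2-DMa, H2-DMb1, H2-T3, H2-Q10, other members beyond ranges and the arrays that stood apart were singled out after their values were seen. Alternatives were other normalizations, filters, blocks (slide, replicate number, RNA integrity), weights and left-out arrays. The code was tested on simulated data.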

Additional observations from a re-analysis of the deposited data

Results flagged for a closer look

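Members left out by the filter were read for signal on single arrays. H2-DMb2, a chain of H2-DM, was well above background on 1 array of 24, female null testosterone 1, at -3.67, where WT sham arrays lay at -5.85 or below. H2-Q1, a class I gene, read -3.73 on that array against at most -4.82 on WT sham arrays, and was above background on 2 arrays. The array is the one with lymphocyte and liver transcripts, whose part in these values was not tested.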

How the results depend on the processing

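Counts of called members were recomputed under 38 other settings, 24 of them leaving out 1 array. Of 528 counts, 509 were 0. Array weights gave 1 member for null against WT in sham females, 4 in the average of the genotype pairs, 4 for castration in WT males, 1 for testosterone in WT females, 4 for sex in WT and 1 for sex in null animals. The shares of all features called with these weights are not given here, so these counts cannot be set beside them. In the average of the pairs, normexp with quantile normalization, the deposited table, the filter on all 24 arrays, the replicate block, RNA integrity as a covariate and leaving out the 2 arrays with liver transcripts gave 1 each, which was H2-M3 (adjusted p = 0.0457 with the replicate block). For sex in WT animals the replicate block gave 1, the slide block 2 and RNA integrity 1. Leaving out 1 array gave 0 to 1 in the average, for genotype in females given testosterone and for testosterone in null females, and 0 in all other comparisons. Called neighbours, 4 in the fit reported, were 2 without a filter, 13 with array weights and 2 to 6 leaving out 1 array. Of 28 differences at an unadjusted p under 0.05, 1024 of 1025 values under other settings kept their sign; H2-Eb2 for genotype in females given testosterone turned to -0.0704 with array weights. For the 14 genes of the naming rule, 6814 of 7182 values kept their sign, and the largest difference that turned was that of Ciita, female minus male in null sham animals, from 0.86 to -0.03 without the 9 arrays with opposite-sex signal; Cd74 in null against WT castrated males turned there from 0.35 to -0.01. The replicate numbers were not taken as pairs: deviations of same-numbered arrays correlated at 0.23 on average but as low as -0.40, and 19 of 24 arrays correlated best with their own number. Without the 9 arrays no WT female given testosterone was left, so the comparisons that use this group were not run. Why the other settings moved these counts was not tested.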
